A study of Mus musculus with 9 samples.

Results

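Transcripts of 10 genes of the perineuronal matrix and its proteolysis were followed in hippocampal synaptoneurosomes: the lecticans Acan, Bcan, Ncan and Vcan, the glycoprotein Tnr, the link proteins Hapln1 and Hapln4, the gelatinase Mmp9 and the inhibitors Timp2 and Timp3. They were taken by symbol, through Ensembl identifiers with the version removed, and all 10 were found among the 22255 identifiers of the table. Every animal was an Fmr1 knockout (KO) mouse on the C57Bl/6J strain, a model of fragile X syndrome that lacks the RNA-binding protein FMRP, so the control group carried the knockout too. The treated group (4 samples, replicate letters A, B, C and E) received AM6545 sub-chronically, and the control group (5 samples, A to E) received vehicle. AM6545 is an antagonist of the cannabinoid receptor CB1 that enters the brain poorly. Synaptoneurosomes are a tissue fraction enriched in pinched-off synaptic terminals, and neither wild-type samples nor whole homogenate are analysed here. The labels give no age, dose or duration and do not say whether each sample is a separate animal, so p-values measure the spread between these samples, which may be technical in part.

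The perineuronal net is a condensed matrix around certain neurons, in the hippocampus above all parvalbumin interneurons and CA2 pyramidal cells. Lecticans are chondroitin sulphate proteoglycans that bind hyaluronan at one end, where link proteins clamp the bond, and tenascin-R at the other. MMP-9 is a secreted protease that cleaves matrix and cell-surface proteins at active synapses and is held in check by TIMPs, and it has been studied in Fmr1 knockout mice because its level and activity are raised there. The net's components come from several cell types: neurons make aggrecan and link proteins, astrocytes make much of the brevican and neurocan, and cells of the oligodendrocyte lineage make versican and tenascin-R.

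None of the 10 genes passed the threshold between AM6545 and vehicle, and the group ranges of all 10 overlapped. All 10 passed the count filter, and edgeR's quasi-likelihood test called 0 of them at the adjusted threshold of 0.05, against 0% of the 14512 genes tested. At an unadjusted p under 0.05 there was 1, Hapln4, higher in AM6545, against 7.21% of all tested genes (3.03% higher and 4.18% lower). Ranges did not overlap for 0 of the 10, against 1.45% of all tested genes (0.579% higher and 0.868% lower). In log2 fold change, 6 were above 0 and 4 below, with a median of 0.06, where 48.2% of all tested genes were above 0 and their median was -0.01.

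Libraries held 17628922 to 27263393 counts. The 6 markers of hippocampal excitatory neurons were all counted in every sample, with summed levels of 2115 to 2469 CPM in AM6545 and 1984 to 2271 CPM in vehicle samples (CPM, counts scaled to a common library size after TMM). All 6 had a log2 fold change above 0, with a median of 0.14, and while their summed levels overlapped, their mean level did not: it was 8.01 to 8.09 log2 CPM in AM6545 and 7.88 to 7.99 log2 CPM in vehicle samples. AM6545 B and vehicle B were nearly equal, and no marker of the 6 had an edgeR unadjusted p under 0.05. Vehicle A and vehicle C stood apart. Vehicle A had the fewest counts and the highest share of mitochondrially encoded transcripts (7.90%), and its summed oligodendrocyte markers, at 22484 CPM, were the highest of the 9 samples. Vehicle C had the lowest summed levels of oligodendrocyte markers, at 10740 CPM, of astrocyte markers, at 3706 CPM, and of vascular markers, at 109 CPM. In fractions of bulk tissue, fewer cells of a type and less RNA per cell cannot be told apart. With vehicle A and vehicle C both left out, a choice made after the data were seen, 0 of the 10 genes had an unadjusted p under 0.05.

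The lecticans stood far apart in level, in the same order in both groups. Brevican, encoded by Bcan (ENSMUSG00000004892.14), is the main lectican of the adult brain. Per kilobase of the longest transcript, Bcan held 86.7% ± 0.669 of the summed lectican level in AM6545 (SD over 4 samples) and 85.7% ± 1.75 in vehicle (SD over 5 samples). Ncan (ENSMUSG00000002341.9), for neurocan, held 12.6% ± 0.652 and 13.4% ± 1.64. Vcan (ENSMUSG00000021614.17), for versican, held 0.483% ± 0.0904 and 0.583% ± 0.111, and Acan (ENSMUSG00000030607.8), for aggrecan, the lectican that marks nets, 0.263% ± 0.0540 and 0.293% ± 0.0596, with the same numbers of samples. These shares overlapped between the groups for each lectican. They depend on the length used: per kilobase of the median transcript length, Ncan held 7.39% ± 0.397 in AM6545 and 7.90% ± 1.01 in vehicle samples, and Vcan 1.53% ± 0.287 and 1.86% ± 0.357, in the same order of the lecticans.

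The upstream sequences of the lectican genes are shown because these paralogs were counted at such different levels in the same libraries. They are the 250 bases before the RefSeq start (GRCm38.p6), each in the direction of its gene: Bcan at chr3:88000357-88000606 (minus strand), Ncan at chr8:70120845-70121094 (minus strand), Vcan at chr13:89742513-89742762 (minus strand) and Acan at chr7:79052976-79053225 (plus strand). Capitals mark matches to a GC box (GGGCGG, or CCGCCC on the other strand) and to a TATA box (TATAAA, or TTTATA on the other strand).
Bcan: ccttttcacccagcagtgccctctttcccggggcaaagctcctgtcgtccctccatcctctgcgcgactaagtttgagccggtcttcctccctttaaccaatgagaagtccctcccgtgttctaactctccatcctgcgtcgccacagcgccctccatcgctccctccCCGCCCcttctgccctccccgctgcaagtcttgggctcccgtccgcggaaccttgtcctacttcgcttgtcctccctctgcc
Ncan: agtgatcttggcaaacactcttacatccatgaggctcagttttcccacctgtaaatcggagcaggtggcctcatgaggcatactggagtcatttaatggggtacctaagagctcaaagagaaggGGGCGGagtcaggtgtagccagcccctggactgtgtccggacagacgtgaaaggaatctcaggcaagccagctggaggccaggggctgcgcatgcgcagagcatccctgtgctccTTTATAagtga
Vcan: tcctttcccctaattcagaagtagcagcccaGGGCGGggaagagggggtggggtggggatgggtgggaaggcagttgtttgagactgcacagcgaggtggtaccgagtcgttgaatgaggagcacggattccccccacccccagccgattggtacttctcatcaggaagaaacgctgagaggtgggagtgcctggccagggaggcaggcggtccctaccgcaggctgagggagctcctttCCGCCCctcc
Acan: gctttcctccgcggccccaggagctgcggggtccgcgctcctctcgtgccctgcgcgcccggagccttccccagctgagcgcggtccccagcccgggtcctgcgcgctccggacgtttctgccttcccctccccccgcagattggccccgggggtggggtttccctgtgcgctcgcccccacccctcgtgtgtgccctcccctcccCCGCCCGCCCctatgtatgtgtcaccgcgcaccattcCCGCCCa

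The Acan window, of the lectican with the lowest level, held 3 GC box matches, a pair of them overlapping, 26 CpG dinucleotides and 74.4% G and C. Vcan held 2 GC box matches with 10 CpGs, and Bcan, with the highest level, 1 with 16 CpGs. Ncan held 1 GC box match, 6 CpGs and the only TATA box match of these windows, read on the other strand close to the start. Among 32851 RefSeq windows of the same length, 32.7% held a GC box match and 12.4% a TATA box match, and the median was 6 CpGs and 52.4% G and C. RefSeq windows were matched for 8 of the 10 genes. The start of the Acan and Bcan windows was not found at the beginning of a GENCODE M21 transcript, so these starts differ between the annotations. Any link between these sequences and the levels of the lecticans was not tested.

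By annotation order in RefSeq each lectican gene neighbours a link protein gene: Acan lies beside Hapln3, Bcan beside Hapln2, Ncan beside Hapln4 and Vcan beside Hapln1. Hapln3 was close to the limit of counting, with 9 to 44 counts in a sample.

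**Figure D1:**
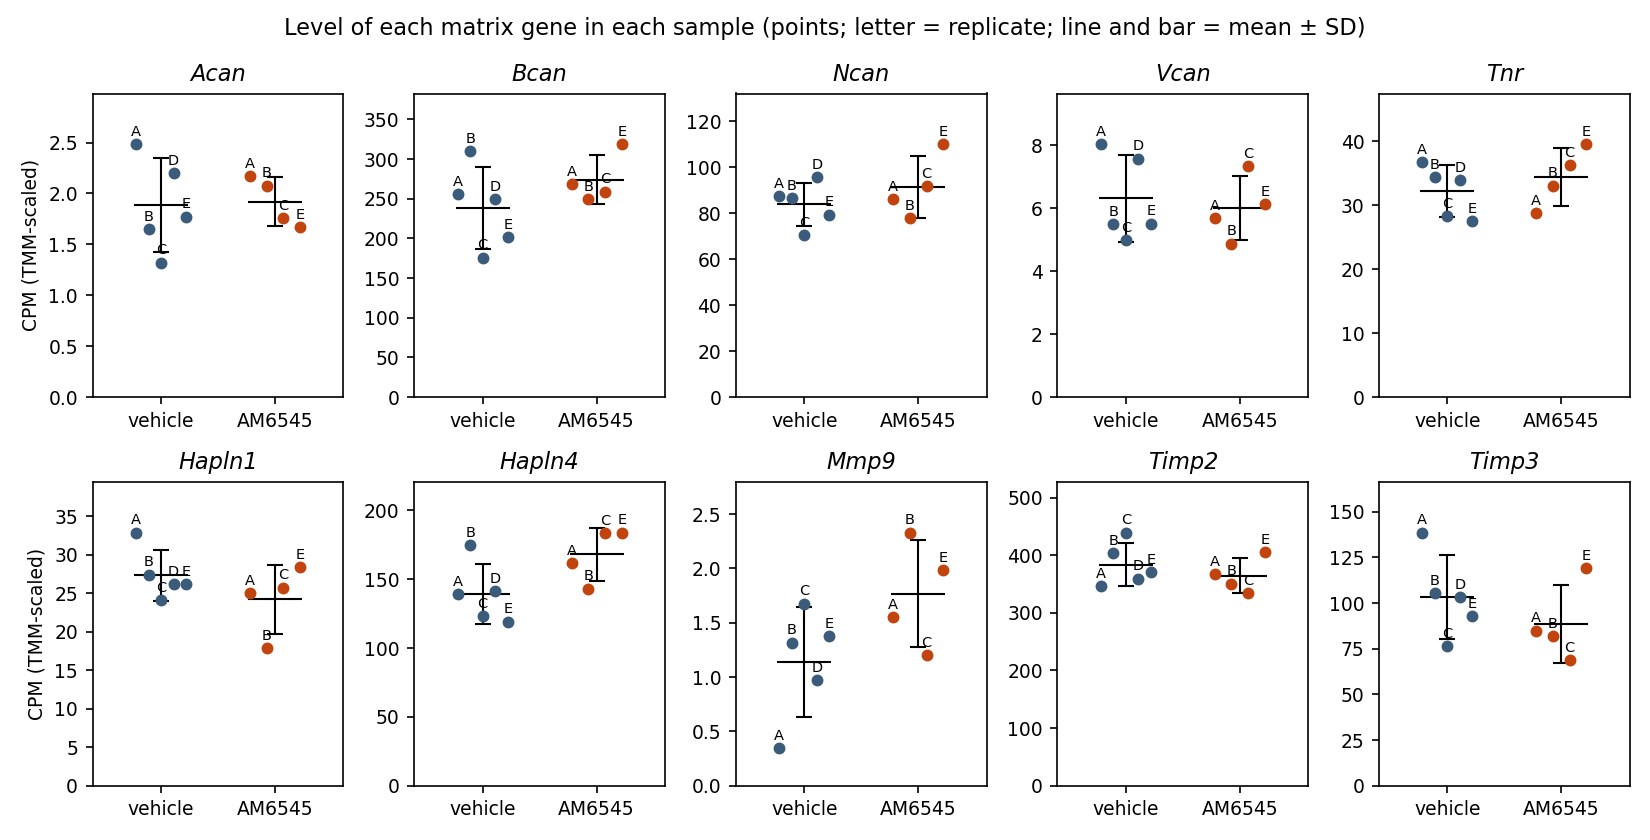
Level of each of the 10 matrix genes, in CPM on a linear axis from 0, in the vehicle (blue, n = 5) and AM6545 (orange, n = 4) samples. Points are samples with their replicate letter and the line with its bar is the mean ± SD; the groups overlap in all 10 panels, and Mmp9 was lowest in vehicle A, at 0.347 CPM.

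Hapln4 (ENSMUSG00000007594.11) encodes a brain link protein (Bral2) that sits with brevican around inhibitory terminals. It was at 162, 143, 183 and 184 CPM in AM6545 A, B, C and E, and at 139, 174, 123, 141 and 119 CPM in vehicle A to E. All 4 AM6545 samples were above the vehicle mean and 2 were above every vehicle sample; vehicle B lay above AM6545 A and AM6545 B. The means were 168 ± 19.6 CPM in AM6545 (SD over 4 samples) and 139 ± 21.9 CPM in vehicle samples (SD over 5 samples). This is a log2 fold change of 0.27 (SE 0.12), with an unadjusted p of 0.0443 and an adjusted p of 0.653 by edgeR's quasi-likelihood test over all genes. Over the alternatives the adjusted p ran from 0.320 to 1.0, and the unadjusted p was under 0.05 in 11 of 21. With 1 sample left out in turn the fold change ran from 0.22 without vehicle E to 0.37 without vehicle B. In these fits edgeR's unadjusted p was under 0.05 only without AM6545 B (0.0187) and without vehicle B (0.005). It was 0.0608 to 0.126 when any other sample was left out. The mean level of the excitatory neuron markers, above, was higher in the same direction. Of the 7 microglia markers, 6 had a fold change above 0 too, with a median log2 fold change of 0.13. The part of either list in the Hapln4 values was not tested.

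Hapln1 (ENSMUSG00000021613.10) encodes the link protein whose loss weakens nets in the cortex. It was at 24.96, 17.8, 25.7 and 28.4 CPM in AM6545 A, B, C and E, and at 32.9, 27.4, 24.1, 26.2 and 26.2 CPM in vehicle A to E. The highest level was in vehicle A and the lowest in AM6545 B, and the other samples of the groups overlapped. The log2 fold change was -0.17 (SE 0.13, 95% interval -0.46 to 0.11; edgeR adjusted p = 0.717), and it was -0.05 without AM6545 B.

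The ratio of Hapln4 to Hapln1 counts, which does not depend on library scaling, was 6.48, 8.02, 7.13 and 6.48 in AM6545 A, B, C and E. In vehicle samples it was 4.23, 6.37, 5.10, 5.39 and 4.55 in A to E. The AM6545 samples were thus all above the vehicle samples, with means of 7.03 ± 0.729 (SD over 4 samples) and 5.13 ± 0.830 (SD over 5 samples), though vehicle B came close to AM6545 A and AM6545 E. This ratio was 1 of 3 computed and was picked out once its values were known, so it is a description with no test. The other two, Timp2 to Timp3 and Bcan to Ncan, overlapped between the groups.

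Bcan was at 268, 249.6, 259 and 319 CPM in AM6545 A, B, C and E, and at 256, 309.6, 176, 249.6 and 202 CPM in vehicle A to E. Vehicle C and vehicle E were the low samples, and the AM6545 samples lay within or close to the range of vehicle A, B and D. The log2 fold change was 0.20 (SE 0.15, 95% interval -0.11 to 0.51; edgeR adjusted p = 0.708). It was 0.11 without vehicle C and 0.32 without vehicle B, the latter with an unadjusted p of 0.0299. Summed astrocyte markers moved with the low samples, at 3706 CPM in vehicle C and 4159 CPM in vehicle E against 4682 to 5671 CPM in the other 7 samples. All 8 astrocyte markers were tested, 3 with a fold change above 0 and 5 below, with summed levels of 4682 to 4931 CPM in AM6545 and 3706 to 5671 CPM in vehicle samples; their part in the result was not tested.

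Ncan ran from 77.8 to 110.0 CPM in AM6545 and from 70.3 to 95.5 CPM in vehicle samples, with a log2 fold change of 0.12 (SE 0.12, 95% interval -0.12 to 0.37). AM6545 E was its highest sample, and without it the fold change was 0.02. Part of the Ncan transcript is at least 95% identical over 100 bases or more to one of Ankrd40 in M21, so its level carries some uncertainty. Tnr (ENSMUSG00000015829.14) encodes tenascin-R, which crosslinks lecticans into a net. It ran from 28.8 to 39.6 CPM in AM6545 and from 27.5 to 36.7 CPM in vehicle samples, a log2 fold change of 0.10 (SE 0.12, 95% interval -0.16 to 0.35), which was 0.02 without AM6545 E. An antisense gene model, Gm38039, overlaps exons of Tnr, and the strand setting of the counting is not given in the sources used here.

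Vcan and Acan were counted thinly. Vcan had 98 to 179 counts in a sample, and ran from 4.87 to 7.34 CPM in AM6545 and from 4.98 to 8.03 CPM in vehicle samples. Its log2 fold change of -0.07 (SE 0.18, 95% interval -0.45 to 0.31) changed sign in 4 of 21 alternatives. The 7 oligodendrocyte markers had summed levels of 13105 to 18822 CPM in AM6545 and 10740 to 22484 CPM in vehicle samples, highest in vehicle A, where Vcan was highest too, and the 7 precursor markers 222 to 251 CPM and 193 to 266 CPM; their part was not tested. Acan had 26 to 52 counts, and was at 2.17, 2.08, 1.76 and 1.67 CPM in AM6545 A, B, C and E, and at 2.48, 1.65, 1.32, 2.20 and 1.77 CPM in vehicle A to E. The extremes were both vehicle samples, and counting error alone spanned 0.862 to 1.93 CPM in vehicle C and 1.80 to 3.35 CPM in vehicle A (95% exact Poisson intervals). Its log2 fold change was 0.03 (SE 0.23), and the 95% interval of the fold ran from 0.730 to 1.43.

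Parvalbumin and CA2 markers, the cells with the densest nets, were read beside these genes. Pvalb was at 17.4 ± 2.27 CPM in AM6545 (SD over 4 samples) and 22.4 ± 5.68 CPM in vehicle samples (SD over 5 samples), a log2 fold change of -0.36 (SE 0.17; edgeR unadjusted p = 0.0522, adjusted p = 0.653). Of the 8 inhibitory interneuron markers 3 had a fold change above 0 and 5 below, with summed levels of 726 to 857 CPM in AM6545 and 765 to 879 CPM in vehicle samples. The 5 CA2 markers were split 3 above and 2 below, with summed levels of 263 to 327 CPM and 285 to 307 CPM, and Pcp4 among them had a log2 fold change of -0.36 (edgeR unadjusted p = 0.0395, adjusted p = 0.653).

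**Figure D2:**
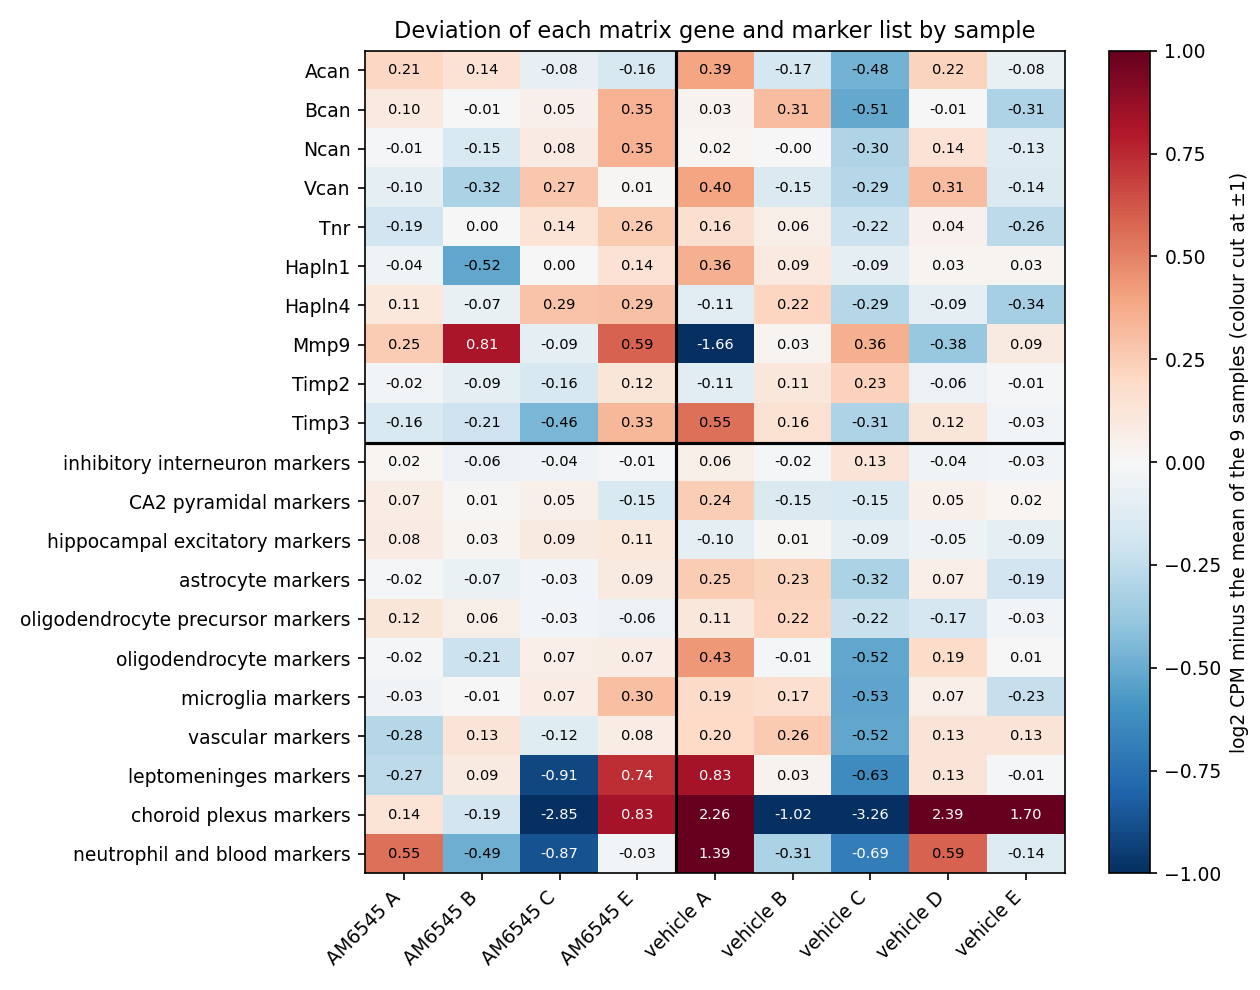
Deviation of each matrix gene (above the line) and of the mean of each marker list (below it) from its mean over the 9 samples, in log2 CPM, with the AM6545 samples on the left. Vehicle C was low for most glial and vascular lists and for Bcan (-0.51) and Acan (-0.48), and vehicle A was high for oligodendrocyte markers (0.43) and Vcan (0.40) and low for Mmp9 (-1.66); colours are cut at -1 and 1.

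Mmp9 (ENSMUSG00000017737.3) was near the limit of counting and had the widest spread of the matrix genes. It was at 1.55, 2.33, 1.202 and 1.99 CPM in AM6545 A, B, C and E, and at 0.347, 1.32, 1.68, 0.972 and 1.38 CPM in vehicle A to E. These levels rest on 28 to 55 counts in AM6545 and 6 to 36 counts in vehicle samples. Vehicle A was far below the rest, with a 95% exact Poisson interval of 0.127 to 0.754 CPM that lies under the levels of the other 8 samples, and vehicle C lay above AM6545 A and AM6545 C. The log2 fold change was 0.62 (SE 0.34), with an unadjusted p of 0.0910 and an adjusted p of 0.653 by edgeR's quasi-likelihood test. Leaving out 1 sample moved it both ways: it was 0.41 without vehicle A, with an unadjusted p of 0.154, and 0.78 without vehicle C, with an unadjusted p of 0.0444. Over the alternatives the adjusted p ran from 0.478 to 1.0. The 95% interval of the fold, 0.925 to 2.55, holds both no change and a change of more than double.

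Neutrophils store MMP-9 and microglia can make it, so markers of both were read. Of the 8 neutrophil and blood markers, the neutrophil genes S100a8, S100a9, Retnlg, Camp, Ngp and Ly6g were under the count filter, none reaching more than 11 counts per library, and Ly6g was at 0 in all. The erythrocyte genes Hba-a1 and Hbb-bs were counted, and the summed list ran from 174 to 469 CPM in AM6545 and from 198 to 836 CPM in vehicle samples, highest in vehicle A, where Mmp9 was lowest. All 7 microglia markers were tested, 6 with a fold change above 0, with summed levels of 860 to 1106 CPM and 628 to 1007 CPM. Among them Tmem119 ran from 50.3 to 57.6 CPM in AM6545 and from 28.5 to 49.2 CPM in vehicle samples, ranges that did not overlap, with a log2 fold change of 0.33 (edgeR unadjusted p = 0.0289, adjusted p = 0.653). Their part in the Mmp9 values was not tested.

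Timp2 (ENSMUSG00000017466.10), a broadly expressed inhibitor that also takes part in activating MMP-2, had the smallest spread of the matrix genes. It ran from 334 to 406 CPM in AM6545 and from 346 to 439 CPM in vehicle samples, on at least 5993 counts. The log2 fold change was -0.07 (SE 0.10; edgeR adjusted p = 0.847), and the 95% interval of the fold was 0.813 to 1.11. It was -0.02 without vehicle C and -0.13 without AM6545 E. Timp3 (ENSMUSG00000020044.14), the inhibitor that binds to the matrix itself, was at 84.9, 81.8, 68.7 and 119 CPM in AM6545 A, B, C and E, and at 139, 105, 76.2, 103 and 92.8 CPM in vehicle A to E. AM6545 E and vehicle A were the high samples of their groups. Its log2 fold change was -0.22 (SE 0.17, 95% interval -0.59 to 0.15; edgeR adjusted p = 0.717). Without AM6545 E it was -0.39, with an unadjusted p of 0.0261 and an adjusted p of 0.364, and without vehicle A it was -0.09. Timp3 lies within Syn3 on the other strand and shares exon sequence with it, so without a stated strand setting some of its counts may belong to Syn3. The 7 vascular markers had summed levels of 119 to 216 CPM in AM6545 and 109 to 229 CPM in vehicle samples, a sum whose highest samples, AM6545 E and vehicle A, were also those of Timp3, with Vtn the most abundant marker there at 116 and 129 CPM. By mean log2 CPM the highest vascular samples were AM6545 B and vehicle B. The 6 choroid plexus markers all had a fold change below 0, 1 of them (Folr1) at an unadjusted p under 0.05. Their summed level ran from 61.5 to 957 CPM in AM6545 and from 48.5 to 4437 CPM in vehicle samples. This sum was lowest in AM6545 C and vehicle C, where Timp3 was lowest too. It was highest in AM6545 E, where Timp3 was at 119 CPM, and in vehicle D, where Timp3 was at 103 CPM. The 6 leptomeningeal markers were split 3 above and 3 below, at 141 to 257 CPM and 175 to 249 CPM. Over the 9 samples, Timp3 had r = 0.73 with astrocyte markers, 0.69 with oligodendrocyte markers and 0.64 with vascular markers, none past adjustment. No relation was computed for the choroid plexus and leptomeningeal markers. The part of any of these cell types in the Timp3 values was not tested.

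**Figure D3:**
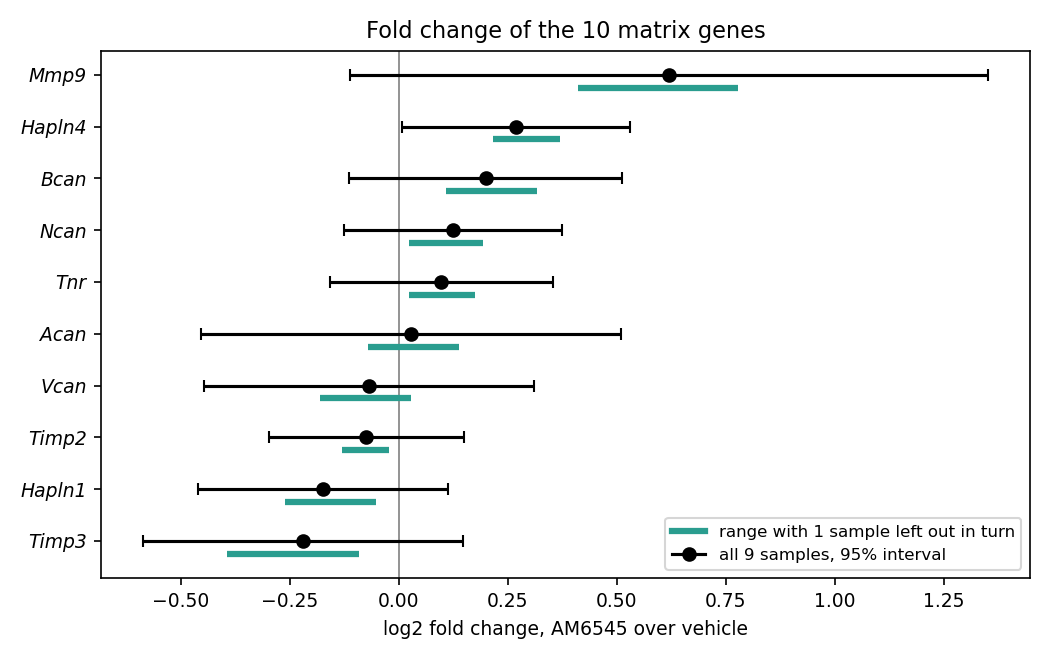
Log2 fold change of AM6545 over vehicle for the 10 matrix genes, with 95% intervals from all 9 samples (black) and the range of the fold change when 1 sample is left out in turn (green). Hapln4, at 0.27, is the one interval that does not include 0, before adjustment, and Mmp9, at 0.62, has the widest interval.

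Between genes, levels were compared per kilobase of transcript, with the median length of the protein-coding M21 transcripts. Timp2 was highest at 169 ± 15.4 CPM per kilobase (SD over the 9 samples), followed by Bcan at 144 ± 25.7, Hapln4 at 41.7 ± 6.77 and Timp3 at 38.1 ± 8.76. Tnr was at 12.6 ± 1.59, Ncan at 12.1 ± 1.59, Hapln1 at 4.54 ± 0.695, Vcan at 2.69 ± 0.511, Mmp9 at 0.790 ± 0.320 and Acan at 0.382 ± 0.0719. At this length Hapln4 and Timp3, and Tnr and Ncan, did not differ beyond their spread. Hapln4 was above Timp3 in 6 of 9 samples and Tnr above Ncan in 5 of 9. Mmp9 was above Acan in 8 of 9. The next lower gene was below in all 9 samples for each of the other neighbours. The order depends on the transcript length used: with the longest transcript Tnr fell to 2.72 and Vcan to 0.497 CPM per kilobase, which put Tnr below Hapln1 in all 9 samples, and Vcan was above Mmp9 in 5 of 9. With the longest transcript Hapln4, at 41.7, was above Timp3, at 20.5, in all 9 samples. Ncan, at 12.1, was then above Tnr in every sample. Among all tested genes with a length, Timp2 stood at percentile 95.4 of levels per kilobase, Bcan at 94.5, Mmp9 at 13.1 and Acan at 6.58.

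Spread over the 9 samples also differed among the genes. In standard deviation of log2 CPM, Timp2 had 0.13, at percentile 13.6 of all tested genes, and Mmp9 had 0.72, at percentile 97.2. Counting error would give a coefficient of variation of 19.4% for Mmp9 and 15.4% for Acan in vehicle samples, where 44.6% and 24.4% were measured. For Bcan it would give 1.35%, where 21.7% was measured, so nearly all of the spread of Bcan lay between samples and not in counting.

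Pairs of matrix genes were compared over the 9 samples in log2 CPM, together with the mean levels of 5 marker lists, 95 relations in all. By exact permutation, 0 of the 95 passed an adjusted p of 0.05 and 17 had an unadjusted p under 0.05. The closest pair by r was Bcan with Hapln4, the lectican and link protein found together at inhibitory synapses. It had r = 0.86 (exact permutation p = 0.00207, adjusted p = 0.0655) and rho = 0.87 (exact permutation p = 0.00451, adjusted p = 0.143). Without vehicle C and vehicle E, the samples farthest from the median of Bcan, r was 0.72 (exact permutation p = 0.0766), so the relation rests in part on them. Measured as deviations from the group means, r was 0.84 (exact permutation p within groups = 0.0156). With the inhibitory interneuron markers, r was -0.51 for Bcan and -0.40 for Hapln4 (exact permutation p = 0.159 and 0.297). The matching rho was 0.03 and -0.25. By rho, Hapln1 with Timp3 was as close, at 0.87 (exact permutation p = 0.00451, adjusted p = 0.143). Their r was 0.67 (exact permutation p = 0.0463, adjusted p = 0.275), and 0.81 without AM6545 B and vehicle A (exact permutation p = 0.0298). As deviations from the group means, r of Hapln1 with Timp3 was 0.61 (exact permutation p within groups = 0.123).

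Bcan, Ncan, Tnr and Hapln4 were positively related in all 6 of their pairs, with r from 0.68 to 0.86, and from 0.29 to 0.72 without the 2 samples farthest from the median. These genes were grouped after their values were seen, so their shared sign is a description. Of all 45 pairs of matrix genes, 32 had r above 0. Vcan went with oligodendrocyte markers, at r = 0.84 (exact permutation p = 0.000683, adjusted p = 0.0649) and rho = 0.92 (exact permutation p = 0.00131, adjusted p = 0.125), and against Mmp9, at r = -0.79 (exact permutation p = 0.00206, adjusted p = 0.0655) and rho = -0.77 (exact permutation p = 0.0214, adjusted p = 0.185). Both weakened without vehicle A and vehicle D, to r = 0.69 (exact permutation p = 0.0970) and r = -0.56 (exact permutation p = 0.187). With the oligodendrocyte precursor markers Vcan had r = -0.03 and rho = -0.08 (exact permutation p = 0.931 and 0.843). The oligodendrocyte markers also had r = 0.73 with Acan, 0.69 with Timp3, 0.67 with Hapln1 and 0.65 with Ncan. Without the 2 samples farthest from each gene's median, these were -0.09, 0.78, 0.64 and 0.58. The relation with Acan thus rests on vehicle A and vehicle C. The r of the oligodendrocyte markers was below 0 with Mmp9 (-0.74) and Timp2 (-0.60), and -0.46 and -0.26 without the 2 farthest samples. Bcan with astrocyte markers, at r = 0.82 and rho = 0.73 (exact permutation p = 0.00693 and 0.0311, adjusted p = 0.165 and 0.246), fell to r = 0.39 without vehicle C and vehicle E, and so rests on those samples as pooled. Measured as deviations from the group means over all 9 samples, its r was 0.93 (exact permutation p within groups = 0.00313, adjusted p = 0.0742). Other genes went with the astrocyte markers too: Timp3 (r = 0.73, rho = 0.82), Tnr (0.73, 0.78) and Hapln1 (0.54, 0.77). Without the 2 samples farthest from each gene's median, their r was 0.76, 0.41 and 0.74. Mmp9 (r = -0.55) and Timp2 (r = -0.29) went the other way.

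The neighbouring genes Ncan and Hapln4 had r = 0.71 and rho = 0.60 (exact permutation p = 0.0310 and 0.0968, adjusted p = 0.235 and 0.354), and r = 0.44 without the 2 samples farthest from the median. Vcan and Hapln1, also neighbours, had r = 0.66 and rho = 0.62 (exact permutation p = 0.0322 and 0.0857, adjusted p = 0.235 and 0.354), and r = 0.54 without them. Samples share library scaling, and total counts in place of TMM scaling gave 0 adjusted calls too.

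**Figure D4:**
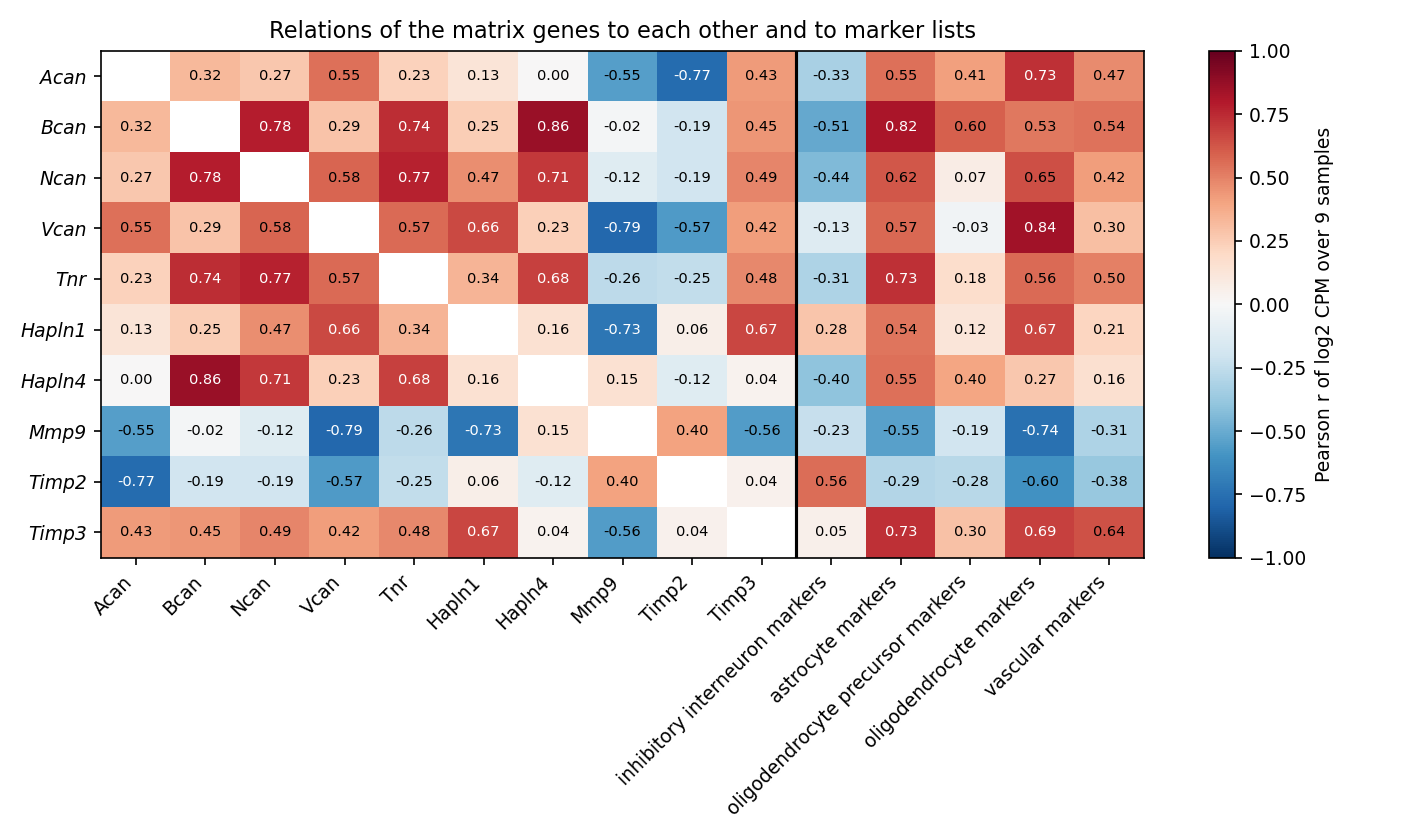
Pearson r of log2 CPM over the 9 samples between the matrix genes (left of the line) and between each gene and the mean level of 5 marker lists (right of it). Bcan, Ncan, Tnr and Hapln4, grouped after their values were seen, have values from 0.68 to 0.86 with each other. Mmp9 is negative with Vcan (-0.79) and Hapln1 (-0.73, and 0.12 without AM6545 B and vehicle A). No relation passed adjustment over the 95.

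As a description of likeness, with no test, the 3 genes with the highest Pearson r over the 9 samples were read for 8 of the matrix genes. For Bcan they were Cx3cr1 (r = 0.98), Retreg2 (0.98) and Ptdss2 (0.97), and for Hapln4 they were Galnt16 (0.98), Zfp523 (0.97) and Nell2 (0.97). Ncan had Tm9sf2 (0.97), Stt3a (0.97) and Cyp51 (0.97), and Tnr had Gpr161 (0.96), Abcc1 (0.95) and Grid1 (0.95). Acan had Ptpn11 (0.96), Cavin3 (0.96) and Spsb2 (0.94), Vcan had Mvb12b (0.98), Cybc1 (0.94) and Tmem9 (0.93), and Hapln1 had Ckap2l (0.97), Phf10 (0.95) and Tspan2 (0.95). Timp3 had Glt8d1 (0.95), St3gal4 (0.95) and Slc1a5 (0.95). These are the highest values out of all tested genes. By rank some were less alike: Spearman rho was 0.80 for Ckap2l and 0.68 for Phf10 with Hapln1, and 0.82 for Cybc1 with Vcan.

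The wider matrix pathway gave no gene past the threshold either: edgeR's quasi-likelihood test called 0 genes of the related lists at the adjusted threshold. At an unadjusted p under 0.05 there were 7, all with a fold change above 0, against 3.03% of all tested genes in that direction. By list these were 1 of 16 other matrix and hyaluronan genes and 2 of 17 chondroitin sulphate synthesis genes. The rest were 2 of 19 metalloproteinases, activators and inhibitors and 2 of 9 receptors for matrix. The lists were chosen with earlier results of these data known, so this count is a description. Of 16 tested genes of other matrix and hyaluronan biology, 13 were above 0 and 3 below, with a median log2 fold change of 0.07. The one with an unadjusted p under 0.05 was Hapln3, the link protein gene beside Acan, at 1.44 ± 0.218 CPM in AM6545 (SD over 4 samples) and 0.929 ± 0.298 CPM in vehicle samples (SD over 5 samples), which is a log2 difference of 0.61 (SE 0.27; unadjusted p = 0.0436, edgeR adjusted p = 0.653).

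Chondroitin sulphate synthesis genes build the chains that lecticans carry. Of 17 tested, 13 were above 0 and 4 below, with a median of 0.04. Chpf and Chpf2 encode chondroitin polymerizing factors, partners of the chain-extending enzymes. Chpf was at 162 ± 13.2 CPM (SD over 4 samples) against 131 ± 20.9 CPM (SD over 5 samples), which is a log2 difference of 0.31 (SE 0.12; unadjusted p = 0.0199, edgeR adjusted p = 0.653), and Chpf2 at 39.5 ± 4.20 CPM (SD over 4 samples) against 31.0 ± 5.29 CPM (SD over 5 samples), which is a log2 difference of 0.35 (SE 0.12; unadjusted p = 0.0139, edgeR adjusted p = 0.653). The ranges of the groups overlapped for both.

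Among other metalloproteinases, activators and inhibitors, 19 of 22 were tested, 11 above 0 and 8 below, with a median of 0.05. Mmp17, a membrane-anchored metalloproteinase, was at 215 ± 13.3 CPM in AM6545 (SD over 4 samples) and 181 ± 22.5 CPM in vehicle samples (SD over 5 samples), with a log2 fold change of 0.25 (SE 0.10; unadjusted p = 0.0304, edgeR adjusted p = 0.653). Spock2, a testican proteoglycan, had a log2 fold change of 0.24 (unadjusted p = 0.0496, edgeR adjusted p = 0.653). Mmp3 was at 0 counts in all 9 samples, and Plau and Timp1 were under the count filter.

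Receptors for matrix had the highest median of these lists, 0.20, with 8 of 9 tested genes above 0. The excitatory neuron markers shared this direction, 6 of 6 above 0 with a median of 0.14, none at an edgeR unadjusted p under 0.05. Their mean levels did not overlap between the groups, though narrowly, with AM6545 B at 8.01 and vehicle B at 7.99 log2 CPM. No relation over samples was computed for them, and their part in the receptor values was not tested. The microglia markers shared the direction too, 6 of 7 above 0 with a median of 0.13. Tmem119 among them had an edgeR unadjusted p of 0.0289. The part of the microglia markers was not tested either. Rtn4rl2 and Rtn4rl1 encode relatives of the Nogo receptor, of which the latter binds chondroitin sulphate. Rtn4rl2 was at 25.4 ± 3.28 CPM (SD over 4 samples) against 19.6 ± 2.85 CPM (SD over 5 samples), which is a log2 difference of 0.37 (SE 0.13; unadjusted p = 0.00997, edgeR adjusted p = 0.653). Rtn4rl1 had a log2 fold change of 0.23 (unadjusted p = 0.0430, edgeR adjusted p = 0.653). Ptprs, the receptor phosphatase that binds lectican chains, had 293 CPM in AM6545 and 252 CPM in vehicle samples on average, a log2 fold change of 0.22 (unadjusted p = 0.0741, edgeR adjusted p = 0.653), and is given here with its role although it was chosen after its values were seen.

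**Figure D5:**
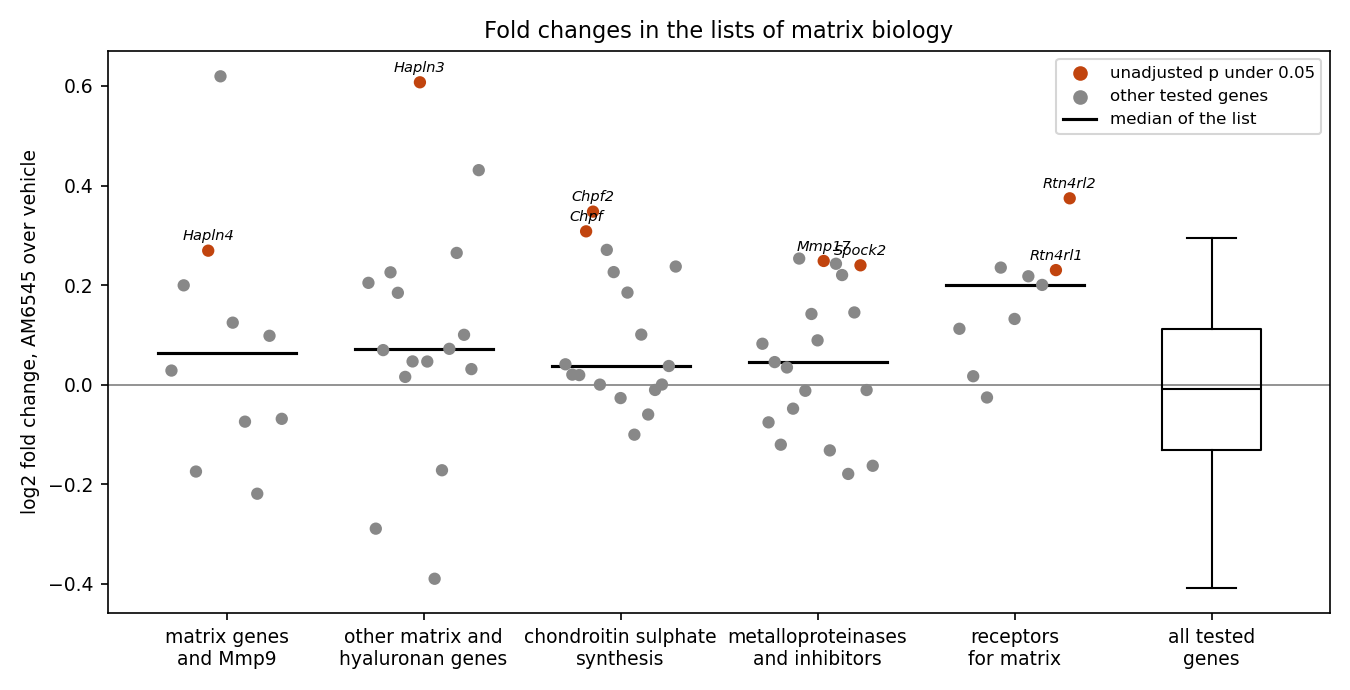
Log2 fold change of AM6545 over vehicle for each tested gene of the matrix genes and 4 related lists, with list medians (black lines); the box shows percentiles 25 to 75 of all 14512 tested genes and its whiskers percentiles 5 and 95. Genes with an unadjusted p under 0.05 are orange and named, all of them above 0, and none passed the adjusted threshold.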

How the data were processed

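RNA of hippocampal synaptoneurosomes was sequenced from SMARTer low-input libraries on a NovaSeq instrument (source: the labels' protocols). Deposited values are estimated counts per Ensembl gene, unscaled between samples, as their values show; the submitters' processing notes name Salmon 1.3, DESeq2 1.30 and the builds GRCm39 and mm10, without roles, and the strand setting is not given in the sources used here. Symbols matched for 22155 of 22255 identifiers. Counts were rounded, filtered with filterByExpr (14512 genes kept), scaled with TMM and tested over all genes by the quasi-likelihood method of edgeR 4.0.16 under R 4.3.3, with Benjamini-Hochberg adjustment at 0.05; the standard error is the absolute log2 fold change over the square root of F. The test was tried on simulated data. Log2 CPM used a prior count of 2. Relations over the 9 samples used exact permutation over 362880 pairings, and those of deviations from group means used 2880 pairings within the groups. Without 2 samples, all pairings of the remaining samples were used. Shared sequence came from blastn 2.17.0 and lengths from GENCODE M21. Poisson intervals cover counting error only. Every pair of libraries differed by more than counting noise, with chi-square over its degrees of freedom at least 8.94.

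The matrix genes and lists were chosen with earlier results of these data known. Named were all 10 matrix genes and, in the related lists, each tested gene with an unadjusted p under 0.05 or else the 2 with the smallest p, and for likeness the 3 genes with the highest r (those of Mmp9 and Timp2 are not reported here); marker lists are given mainly as summed levels, with the genes at an unadjusted p under 0.05 (Pcp4, Tmem119, Folr1) and Pvalb named. Alternatives were other size factors and filters, DESeq2 1.42.0, limma-voom (limma 3.58.1) with sample weights, robust estimation, removal of mitochondrially encoded genes or of each sample's length trend, the title letter as a block, and each sample left out.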

Additional observations from a re-analysis of the deposited data

Results flagged for a closer look

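Of 42 groups of values tried (10 matrix genes and 11 marker lists in each treatment group), 1 had a sample farther from the others than the 95% critical value of Dixon's ratio, where chance gives 2.1. The mean level of the vascular markers in vehicle C was 2.62 on the log2 CPM scale. Vehicle A, B, D and E lay at 3.27 to 3.40 (ratio of gap to range 0.831).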

How the results depend on the processing

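The number of genes past the adjusted threshold stayed at 0 in every alternative except leaving out AM6545 A, so that it ran from 0 to 1 with each sample left out. The count at an unadjusted p under 0.05, 1047 with all samples, ran from 496 without vehicle A to 1848 without AM6545 E, and was 1823 with limma-voom sample weights and 460 with vehicle A and vehicle C left out, an alternative added after the data were seen; the cause was not tested. No matrix gene passed the adjusted threshold in any alternative. The sign of Acan turned to -0.0148 with the length trend removed, and its log2 fold change ran from -0.0703 without vehicle C to 0.14 without vehicle A; that of Vcan was 0.0115 with the replicate block, and lay between -0.180 (AM6545 C left out) and 0.0281 (vehicle A left out). The other 8 genes kept their sign. Mmp9 has no value under the filter of 10 counts in every sample, since vehicle A had 6. The labels do not say that a letter pairs samples, and the deviations of same-letter samples correlated at -0.02 (A), 0.04 (B), 0.34 (C) and -0.02 (E); with the replicate block 0 genes passed and 759 had an unadjusted p under 0.05. Counting error was largest for Mmp9, Acan and Vcan, at 19.4%, 15.4% and 8.42% of the level in vehicle samples, where the measured coefficients of variation were 44.6%, 24.4% and 21.9%.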
